A study of Drosophila melanogaster with 4 samples.

Results

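*Parg* and *Parp1* encode the enzymes that remove and add poly-ADP-ribose in *Drosophila*, and both were followed here in RNA-seq of S2R+ cells, a line grown from late *Drosophila* embryos. The 2 genes were taken by symbol, from 13909 genes with transcripts in the quantification. They were chosen by their levels and fold changes in this very comparison, *Parg* for a decrease and *Parp1* for an increase, so these values are given as a description and carry no test. There were 2 libraries of wild-type cells and 2 of a CRISPR line, the enhancer mutant, without the enhancer that lies in an intron of *Notch*, all from total RNA of cells grown in the same medium. By the methods the mutant is a homozygous clone, isolated by serial dilution from a pool of transfected cells selected with puromycin, whereas the methods give no cloning step for the wild-type cells, and no unedited clone was analysed here. An effect of the deletion and differences that arose during cloning therefore cannot be told apart. S2R+ cells are described as tetraploid by the study, and how many copies of either gene they carry was not measured by these libraries.

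Poly-ADP-ribose is a chain of ADP-ribose units that Parp1 builds on chromatin proteins and on itself, using NAD as the donor. Parg, a glycohydrolase, cuts the chains back, so that the mark is reversible. In the fly the pair is best known for loosening chromatin at genes under strong induction such as the heat shock loci, for work in nucleoli and Cajal bodies, and for the early response to DNA strand breaks. The messenger RNA level of the 2 enzymes says nothing by itself about their activity or about the amount of the polymer, neither of which was measured.

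Sequencing gave between 16240543 and 29605002 estimated counts per library, and the mutant libraries were the deeper ones. *Notch*, the gene that holds the deleted enhancer, had 14.99 and 12.5 TPM in the wild-type libraries and 2.80 and 2.36 TPM in the mutant libraries. Since the deleted enhancer is intronic, this is a change in the level of the gene and not a direct reading of the deletion. Of 7 hemocyte markers, the blood cell lineage that S2R+ cells resemble, 5 had a mean above 1 TPM in at least one condition. Of the 6 tested, 1 was called higher and 3 lower, while 12.6% of all tested genes were called higher and 15.3% lower. Their summed level ran from 161 to 172 TPM in wild-type and from 177 to 197 TPM in the mutant, led by *crq* and *srp*. In TPM these went in opposite directions. *crq*, the marker called higher, had 73.5 and 73.8 TPM in wild-type and 124 and 113 TPM in the mutant. *srp*, not called, had 74.8 and 61.7 TPM against 50.0 and 45.2 TPM. The 3 called lower were *Hml*, *Col4a1* and *vkg*. *NimC1* was at 0 in 1 library of each condition and *Hml* stayed below 1 TPM. The frizzled receptor gene *fz*, which sets S2R+ cells apart from other S2 lines, had 2.08 and 2.18 TPM in wild-type and 0.381 and 0.446 TPM in the mutant. Of the 3 neuronal markers, *elav* was the most abundant, with 11.4 to 14.2 TPM in wild-type and 7.78 to 8.02 TPM in the mutant. The muscle factor gene *Mef2* had 15.6 and 15.4 TPM in wild-type and 10.98 and 9.26 TPM in the mutant. *Mhc* was at most at 0.0181 TPM, the germline gene *vas* at 0.198 TPM and the follicle cell gene *tj* at 0.435 TPM in any library. *tj* was called higher, on 7 to 51 counts per library. Another germline gene, *nanos*, was called lower at a low level. It had enough counts for the fit only through the wild-type libraries, so its direction was set in advance. The part of any such difference between the cells in the values below was not tested, and in bulk RNA fewer cells that express a gene cannot be told apart from less RNA per cell.

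*Parg* (FBgn0023216) lies on the minus strand of chromosome X (dm6) from 3668837 to 3671502, 496.6 kb downstream of the end of *Notch*. It sits between *Notch* and *Tlk*, which the study places in one mega-domain of contacts with the enhancer. It is a compact gene, with 2 exons separated by an intron of 67 bases. *Parp1* (FBgn0010247) lies on the minus strand of chromosome 3R from 3461351 to 3587054, in the heterochromatin next to the centromere. Its single annotated transcript has 6 exons that add up to 3112 bases, or 2.48% of a span of 125704 bases. Introns of up to 61032 bases make up the rest, and they hold annotated transposable elements of the invader2, mdg1 and Tc1-2 families. By span *Parp1* was number 49 and *Parg* number 5783 among the 13909 genes.

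The 2 genes moved in opposite directions. *Parg* had 52.0 and 51.6 TPM in wild-type replicates 1 and 2, against 10.4 and 8.03 TPM in enhancer mutant replicates 1 and 2, where TPM is the authors' unit of transcript abundance, corrected for effective length. *Parp1* had 31.96 and 32.4 TPM in wild-type and 53.96 and 52.97 TPM in the mutant. For both genes the conditions did not overlap, and the gap between them was far wider than the gap between replicates.

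**Figure D1:**
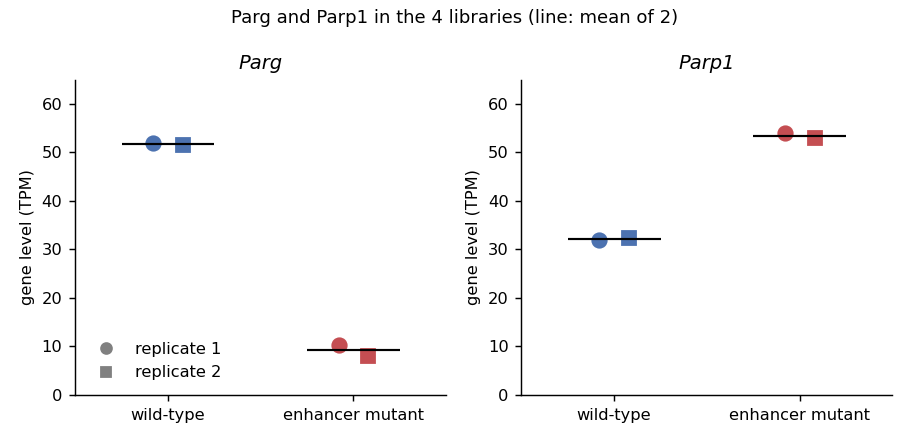
Gene level in TPM (vertical axes, from 0) of *Parg* and *Parp1* in the 4 libraries, with circles for replicate 1, squares for replicate 2 and lines for the mean of 2 libraries. *Parg* drops from 51.8 to 9.20 TPM on average, while *Parp1* goes from 32.2 to 53.5 TPM.

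The mean of *Parg* was 51.8 ± 0.319 TPM in wild-type and 9.20 ± 1.66 TPM in the mutant (SD, n = 2). Behind these values stood 2719 and 2198 estimated counts in wild-type against 932 and 659 in the mutant, so that counting alone gives a relative error between 1.92% and 3.90% per library. In counts relative to a library total scaled by TMM (CPM), which allows comparison between libraries but not between genes, *Parg* had 133 and 125 CPM in wild-type and 33.4 and 28.7 CPM in the mutant. The edgeR fit gave a log2 fold change of -2.05, or a 4.15-fold lower level (a change of -75.9%). In TPM the wild-type replicates differed by less than the mutant replicates. In CPM they differed by more in absolute terms, but by less relative to their mean. When any one library was dropped, the estimate stayed between -2.15 and -1.94.

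The mean of *Parp1* was 32.2 ± 0.318 TPM in wild-type and 53.5 ± 0.700 TPM in the mutant (SD, n = 2). It was read from 2121 and 1716 estimated counts in wild-type against 6294 and 5337 in the mutant, with a counting error between 1.26% and 2.41% per library. In CPM it had 104 and 97.9 in wild-type against 226 and 233 in the mutant. The log2 fold change was 1.18, or 2.27-fold, and stayed between 1.16 and 1.23 when any one library was dropped.

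The size of the change depended on the scale, but its direction did not. Over all 8182 genes with enough counts to be fitted, the median change of the mutant on the log2 scale was -0.44 in TPM and -0.0037 in CPM scaled by TMM. In TPM the log2 ratio was -2.49 for *Parg* and 0.73 for *Parp1*. Relative to the median of all genes on that scale these were -2.05 and 1.17, close to the values of the edgeR fit. Where a gene is called negative in TPM below, its ratio is not set against this median.

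Of the 8182 genes, 15.3% were called lower and 12.6% higher in the mutant, which required a Benjamini-Hochberg p under 0.05 together with a log2 change of 0.5 or more in size. In CPM the conditions did not overlap, with the mutant the lower one, for 37.9% of genes, and with the mutant the higher one for 37.7%. *Parg* is one of the lower genes and *Parp1* one of the higher genes on both criteria, which is how they were chosen. In size, 331 genes had a lower log2 fold change than *Parg* and 204 had a higher one than *Parp1*.

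**Figure D2:**
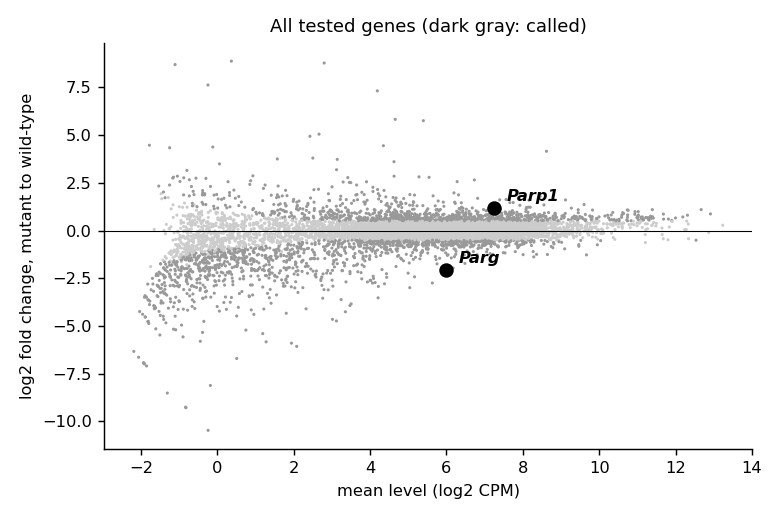
Log2 fold change of the enhancer mutant to wild-type (vertical axis) against mean level in log2 CPM (horizontal axis) for the 8182 genes of the fit, with called genes in dark gray and *Parg* and *Parp1* in black. They lie on opposite sides of 0, at -2.05 and 1.18.

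Because TPM is corrected for length, the 2 genes could be set side by side within a library. In wild-type cells the eraser was the more abundant messenger, with 1.63 and 1.59 *Parg* transcripts per *Parp1* transcript. In the mutant the order was reversed, with 0.192 and 0.152, so that *Parp1* was 5.20 and 6.60 times as abundant as *Parg*. The mean log2 ratio of *Parg* to *Parp1* was 0.69 ± 0.023 in wild-type and -2.55 ± 0.24 in the mutant (SD, n = 2). The difference of -3.24 between conditions lay between -3.41 and -3.07 when any one library was dropped, and was -3.24 in CPM too, as a scaling factor cancels from such a ratio. Both genes were above the median of the genes detected in wild-type cells. *Parg* had a higher TPM than 79.0% and 77.0% of genes above 0 in the wild-type libraries, and than 46.8% and 43.6% in the mutant libraries. For *Parp1* these shares went up, from 68.0% and 66.3% to 81.0% and 81.4%.

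At the level of transcripts, *Parg* has 2 annotated forms with the same coding sequence of 2169 bases. Parg-RC (FBtr0307280) is 2599 bases long. Parg-RB (FBtr0307279) is 2521 bases long and lies wholly inside it, starting 14 bases later and ending 64 bases earlier, so that 97% of the bases of Parg-RC are also in Parg-RB. Parg-RC had 52.0 and 50.9 TPM in wild-type and 6.22 and 7.16 TPM in the mutant. Parg-RB had less than 0.001 and 0.694 TPM in wild-type, and 4.15 and 0.864 TPM in the mutant. Parg-RC thus followed the gene, and Parg-RB did not.

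Of the *Parg* counts, Salmon gave Parg-RB a share of 1.31% in wild-type replicate 2 and next to none in replicate 1. In the mutant the share was 39.2% in replicate 1 and 10.5% in replicate 2, so that the mutant replicates differed by more than mutant replicate 2 differed from wild-type. Parg-RB has no base that Parg-RC lacks, and the 14 and 64 end bases are the only ones that tell them apart. The split between them is therefore a weak estimate, whereas the sum over the gene does not depend on it. *Parp1* has 1 transcript in the quantification, Parp1-RB (FBtr0113885), with 2982 coding bases, so forms of *Parp1* that differ in their coding exons could not be told apart.

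The last exon of *Parg* meets that of *Ilp7* (FBgn0044046), which encodes an insulin-like peptide and runs on the plus strand from 3667621 to 3668845. The 3′ UTRs of Ilp7-RA and Parg-RC share 9 bases, from 3668837 to 3668845, and Parg-RB shares none. *Ilp7* had counts of 3 and 0 in the wild-type libraries, against 2 and 1 after loss of the enhancer, at or under the floor of 3 counts in each library, so no fold change is given for it. The summed counts of *Parg* were whole numbers in all 4 libraries, within 0.01, and so were those of *Ilp7*. No fractional assignment of reads between genes shows in these sums. Whether the libraries kept the strand is not given in the sources used here, and the 9 shared bases are the only part of the *Parg* exons where a read could come from *Ilp7*. With the counts of both genes added together as a single locus, the log2 fold change was -2.05, as for *Parg* alone. The few counts of *Ilp7* could hardly have moved it, so this sum does not test the overlap. The counts of *Parp1* were whole too, and no other gene with transcripts in the files overlaps its span. For comparison, between 88.9% and 89.6% of genes above 0 had whole sums in a library.

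**Figure D3:**
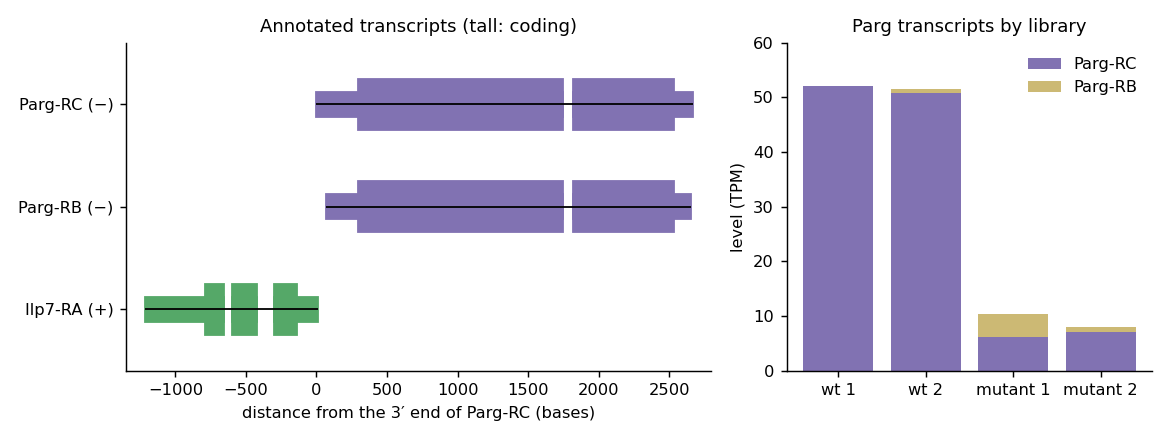
Left, annotated transcripts of *Parg* and *Ilp7* drawn to scale along the distance in bases from the 3′ end of Parg-RC, with coding parts tall. Right, TPM of Parg-RC and Parg-RB stacked for each library, where the 2 mutant libraries reach 10.4 and 8.03 TPM and Parg-RB takes 4.15 and 0.864 TPM of them.

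Around *Parg*, 7 of the 10 nearest genes with transcripts in the files, 5 on each side, had enough counts for the edgeR fit. Of these 7 genes, 5 were called lower and none higher, against 15.3% called lower among all tested genes, and the median log2 fold change was -1.16. Among the 5, *ppk8* had enough counts for the fit only through the wild-type libraries, so its direction was set in advance. The median is the value of *Crg-1*, which had 6 to 12 counts per library and was not called. *Crg-1* too had enough counts only through the wild-type libraries, so the sign of this median was set in advance. That genes along this stretch were mostly lower was known when *Parg* was chosen, so their count is a description as well. No tested neighbour had a positive log2 fold change on the TMM, TPM or library size scale, which for *ppk8* and *Crg-1* was set in advance. These scales rest on the same counts.

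The nearest of them is *Mnt*, which encodes a Max-binding repressor that opposes Myc. It is transcribed away from *Parg*, and 298 bases separate the starts of the 2 genes. *Mnt* had 171 and 136 CPM in wild-type and 68.7 and 74.1 CPM in the mutant (log2 fold change -1.10 ± 0.12, SE, with adjusted p = 4.74e-05 by edgeR's quasi-likelihood test, Benjamini-Hochberg). Both genes of this divergent pair were thus lower, *Parg* by the larger fold.

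Of the other neighbours, *CG2875* had a log2 fold change of -1.24, *HIP-R* of -1.26 and *Tlk*, which encodes the tousled-like kinase, of -0.90, and all 3 were called. The smallest change was that of *Rala*, which encodes a small GTPase of the Ral family and lies 33.1 kb from *Parg*. It had 386 and 348 CPM in wild-type and 287 and 292 CPM in the mutant, and its log2 fold change of -0.34 fell short of the threshold of 0.5 (SE 0.0948, with adjusted p = 0.0125 by edgeR). With library sizes alone it was -0.54. *ppk8*, of the pickpocket family of sodium channels, was called lower on counts of 17 and 15 in the wild-type libraries against 1 and 1 in the mutant ones, and *Crg-1*, with 6 to 12 counts in each library, was not called. *CG13021*, the allatostatin receptor gene *AstA-R1* and *Ilp7* had too few counts to be tested.

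Around *Parp1*, the 5 nearest genes on the side of the centromere lay 107 to 2739 kb away. They were at or close to 0, with at most 3 counts in any library. They include *spok*, a cytochrome P450 gene of ecdysone synthesis, with counts of 2 and 3 in the wild-type libraries and none in the mutant ones. The 5 nearest genes on the other side were all tested, and 3 of them were called higher and none lower, against 12.6% called higher among all genes. Of the 3, *CG42402* had enough counts for the fit only through the mutant libraries, so its direction was set in advance. The median log2 fold change of the 5 genes was 0.52. *CG41099* had 159 and 158 CPM in wild-type and 232 and 223 CPM in the mutant (log2 fold change 0.52, with adjusted p = 0.000781 by edgeR). *CG41128* had a log2 fold change of 0.97 on 29 to 106 counts per library, and was not called by DESeq2 or without mutant replicate 2 (0.71). *CG42402*, the furthest of the 5, rose from counts of 1 and 0 to 469 and 301, and no fold is given against so few.

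The genes next to *Parp1* on that side, *Alg-2* at 36.1 kb and the mitochondrial import gene *Tim17b* at 148 kb, had log2 fold changes of 0.41 and 0.34 and were not called. *Alg-2* had 106 and 107 CPM in wild-type and 135 and 146.5 CPM in the mutant. In TPM the sign of both genes turned, with log2 ratios of -0.026 and -0.073, whereas *Parp1* was higher on each scale. Relative to the median of all genes in TPM, however, *Alg-2* was at 0.41 and *Tim17b* at 0.37, close to their edgeR values. *CG41099* was not called with library sizes alone (0.33), with at least 10 counts in every library (0.50) or at the threshold of 1.5-fold, and in TPM its conditions overlapped, with 38.7 and 41.4 against 44.7 and 40.1.

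**Figure D4:**
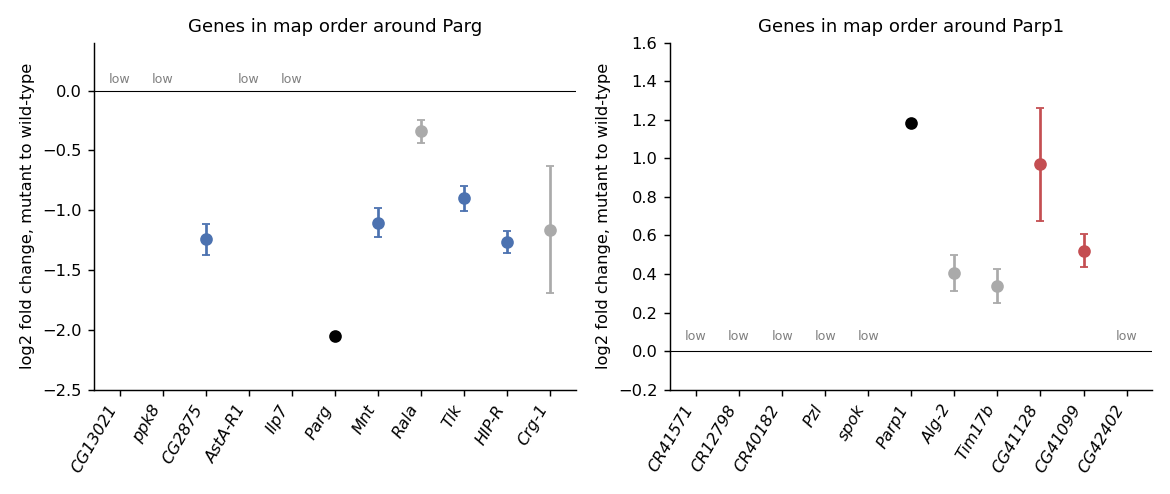
Log2 fold change of the enhancer mutant to wild-type in the edgeR fit (vertical axes) for the 5 genes on each side of *Parg* (left) and *Parp1* (right), in map order, with standard errors, called lower in blue, called higher in red, not called in gray and the 2 described genes in black without an error bar. The word low marks genes that were not tested or had at most 3 counts in some library. These include the called neighbours *ppk8* and *CG42402*, whose fitted changes were larger than those of *Parg* and *Parp1* and are not drawn. Of the points drawn, *Parg* at -2.05 is the lowest and *Parp1* at 1.18 the highest.

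The other genes of poly-ADP-ribose turnover had log2 fold changes smaller in size than these 2, which were chosen for their changes. Without *Parg* and *Parp1*, 5 genes of this list were tested, 1 was called higher and none lower, while 27.9% of all tested genes were called in either direction. The median log2 fold change was -0.16, against -0.0037 over all tested genes. *PI31*, which encodes a proteasome regulator modified by tankyrase, was the called gene. It had 82.0 and 91.7 CPM in wild-type and 127 and 128 CPM in the mutant (log2 fold change 0.55 ± 0.0981, SE, with adjusted p = 0.00109 by edgeR). It was no longer called with library sizes alone (0.36), without wild-type replicate 1 (0.48) or at a threshold of 1.5-fold. In TPM it had 89.0 and 103 in wild-type against 109 and 100.2 in the mutant, which overlap.

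*Tnks*, which encodes tankyrase, the other polymer-forming enzyme of the fly, had a log2 fold change of the opposite sign to *Parp1* that was not called. It had 68.8 and 67.5 CPM in wild-type and 50.9 and 46.2 CPM in the mutant, lower without overlap, as were 37.9% of tested genes. Its log2 fold change of -0.49 lay just short of the threshold (SE 0.0929, with adjusted p = 0.00164 by edgeR). It passed with an offset for effective length (-0.51), with at least 10 counts in every library (-0.51), with library sizes alone (-0.68) and without mutant replicate 1 (-0.55). *Hpf1*, the partner that directs Parp1 to serine residues in human cells, had a log2 fold change of 0.15 (negative in TPM), *Rnf146*, a ubiquitin ligase that recognises the polymer, of -0.25, and *Axn*, a target of tankyrase, of -0.16. None of these 3 genes was called. *Parp16* had 0 counts in all 4 libraries, which allows up to 3 counts in each.

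Genes of NAD supply and of other NAD-consuming enzymes were a second list, and 9 of its 10 genes could be matched and tested. Of these 1 was called, lower in the mutant, which is 11.1% of the 9 against 27.9% called in either direction over all genes, and the median was -0.031. That gene was *Sirt1*, a NAD-dependent deacetylase, with 129 and 107 CPM in wild-type and 74.9 and 63.2 CPM in the mutant. Its log2 fold change was -0.77 (SE 0.122, with adjusted p = 0.000543 by edgeR). *Nmnat*, *Naprt* and *Nadsyn*, which act in NAD synthesis, had log2 fold changes of -0.25, 0.024 and 0.21 (all 3 negative in TPM), and *Sarm*, a NAD-cleaving enzyme, of -0.031. *Sirt4* had the largest change among those not called, at 0.40, and in TPM its log2 ratio was -0.012, or 0.43 relative to the median of all genes.

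The third list holds 15 genes whose products control Parp1, carry or bind its polymer, or act with it at heat shock loci in the fly. All 15 were tested, 1 was called lower and none higher, which is 6.67% against 27.9% called in either direction over all genes, and the median was 0.077. *Mi-2*, which encodes a chromatin remodeller that binds the polymer, had 634 and 575 CPM in wild-type and 414 and 391 CPM in the mutant (log2 fold change -0.59 ± 0.0985, SE, with adjusted p = 0.000777 by edgeR). Genes for controllers of Parp1 gave log2 fold changes of 0.16 for the histone variant gene *His2Av* (negative in TPM), -0.072 for the kinase gene *JIL-1* and -0.34 for the acetyltransferase gene *Tip60*. *Tip60* was called with library sizes alone (-0.53). Among genes for substrates and readers, *Iswi* had 0.094, the insulator gene *Cp190* 0.24, and the splicing factor genes *Hrb98DE*, *sqd* and *Hrb87F* 0.077, 0.21 and 0.35. All 5 were negative in TPM, but lay between 0.082 and 0.36 relative to the median of all genes on that scale. Of the uncalled genes *Hrb87F* had the largest change.

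The fourth list covers DNA strand break repair. Of its 18 genes, all tested, 3 were called lower and 1 higher, or 22.2% called against 27.9% over all genes, and the median was -0.051. With library sizes alone 6 were called, all lower, and *tefu* was not among them. The lower genes were *Irbp*, which encodes the Ku70 subunit, *DNAlig4*, the ligase of end joining, and *PolQ*, the polymerase of alternative end joining. *DNAlig4* had 45.6 and 49.7 CPM in wild-type and 29.5 and 28.5 CPM in the mutant (log2 fold change -0.72 ± 0.0936, SE, with adjusted p = 0.00016 by edgeR). *PolQ* had 55.1 and 51.1 CPM against 33.4 and 30.4 CPM (-0.73, adjusted p = 0.000159, by edgeR), and *Irbp* had 89.2 and 87.2 CPM against 59.1 and 50.8 CPM (-0.68, adjusted p = 0.000388, by edgeR). The conditions did not overlap for any of the 3, as for the 37.9% of all tested genes that were lower without overlap. *Ku80*, the gene for the other Ku subunit, was not called, with a log2 fold change of -0.16.

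The higher gene of this list was *tefu*, the fly ATM kinase, with 81.3 and 52.8 CPM in wild-type and 116 and 91.8 CPM in the mutant. Its log2 fold change was 0.63 (SE 0.177, with adjusted p = 0.0134 by edgeR), and its wild-type replicates differed widely. In TPM its conditions overlapped, with 8.58 and 5.96 against 9.68 and 6.97. It was not called by DESeq2, with library sizes alone, without wild-type replicate 2 (0.37) or without mutant replicate 1 (0.46). The genes of single-strand break repair on this list, the pathway in which Parp1 acts as a sensor, were not called with TMM scaling and all libraries. *XRCC1* had a log2 fold change of 0.12 (negative in TPM), *DNAlig3* of -0.35 (called at -0.55 with library sizes alone) and *gkt*, which encodes a tyrosyl-DNA phosphodiesterase and had the largest change of the uncalled genes, of 0.40 (negative in TPM). Without wild-type replicate 2 *gkt* was called, at 0.58.

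Over the 4 lists together, 47 tested genes remain without *Parg* and *Parp1*, and 7 of them (14.9%, against 27.9% over all genes) were called, 2 higher and 5 lower. The sign of these 7 genes was the same in TPM and with library sizes alone. Their log2 fold changes lay between -0.77 and 0.63.

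The genes whose levels followed those of *Parg* and *Parp1* most closely were found by the distance between centred log2 CPM values over the 4 libraries, among 7107 other genes whose log2 CPM averaged 1 or more. With 4 libraries in 2 conditions, such likeness mostly reflects a similar fold change. For *Parg* the nearest were *CG17816*, *insc*, *CG1894*, *CG44325* and *CG5835*, at distances from 0.053 to 0.15 and with log2 fold changes from -2.14 to -2.04. Only *CG44325* of these lies on chromosome X, and none is among the neighbours of *Parg*. *insc*, which encodes the spindle orientation adaptor Inscuteable, had 8.94 and 8.16 CPM in wild-type and 2.04 and 1.83 CPM in the mutant. For *Parp1* the nearest were *CG12012*, *CG45087*, *RhoGAP16F*, *crq* and *ckd*, at distances from 0.071 to 0.096 and with log2 fold changes from 1.12 to 1.28. *crq*, the scavenger receptor of hemocytes, had 191 and 178 CPM in wild-type and 405 and 394 CPM in the mutant. None of these 5 genes lies on chromosome 3R.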

How the data were processed

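The authors quantified transcripts with Salmon (version 0.10.2 in the submitters' processing notes) against the dm6 transcriptome, with its options for mapping checks and for GC bias. For each library the authors deposited estimated counts, which are not normalized, TPM values, which have the same total in each library and are corrected for effective length, and transcript lengths. The annotation release is not given in the sources used here.

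Of 30070 transcripts, 29850 could be placed in a gene of the Ensembl annotation (dm6 coordinates). The other 220 held between 0.230% and 0.292% of counts. Sums per gene were then taken of TPM and of estimated counts, the latter rounded. The fit used edgeR 4.0.16 (filterByExpr, TMM, quasi-likelihood F test, Benjamini-Hochberg adjustment over 8182 genes) in R 4.3.3, with all 4 libraries and condition as the only term. A call needed an adjusted p under 0.05 together with a log2 change of 0.5 or more in size. Standard errors (SE) were taken from F, as the size of the log2 change over its square root. With 2 against 2 libraries an exact two-sided permutation test cannot go below p = 0.333, and p values draw on the variance of all genes. The labels do not say whether replicates came from separate cultures, so p values measure only the spread between these libraries. Counting errors cover counting only. Log2 CPM values used a prior count of 2.

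Alternatives were DESeq2 1.42.0, other scalings, filters and thresholds, a length offset, a replicate block and each library left out. On simulated counts with 200 changed genes, edgeR tested 8046 genes and called 186 of the 195 changed ones among them (95.4%). It also called 3 unchanged genes. Changes as small as those of the list genes other than *Parg* and *Parp1* were not simulated.

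The members and gene lists were chosen with earlier results of these data known. Named genes are *Parg*, *Parp1* and *Ilp7*, called genes of the lists, the largest uncalled change of each list, 5 neighbours on each side and the 5 nearest in likeness. Other list genes were named for their role after their values were seen. *Sirt2* found no match, and 1 gene that is kept in the counts of the lists is not reported here. No sequence was used.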

Additional observations from a re-analysis of the deposited data

How the results depend on the processing

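Under the alternatives run, *Parg* stayed lower and *Parp1* higher. The log2 fold change of *Parg* moved by more than the spread between replicates with library sizes alone (-2.25) and on the scales log2(TPM + 1) (-2.38) and log2(TPM + 0.1) (-2.49), and that of *Parp1* with the same settings, to 0.99, 0.71 and 0.73. These settings shift all genes, by a median of -0.20 with library sizes alone and -0.44 in TPM. The change in the log2 ratio of *Parg* to *Parp1* stayed between -3.41 and -3.07. On the adjusted p alone, 3984 genes were called in place of 2285, 4 in place of 1 among Parp1 partners and 8 in place of 4 in strand break repair. With library sizes alone 2 Parp1 partners and 6 strand break repair genes were called, all lower, and the genome-wide calls split into 560 higher and 1984 lower, against 1031 and 1254 with TMM. DESeq2 called 1019 higher and 976 lower. Of the called list genes, *PI31* was not called in 3 settings and *tefu* in 4. Of the called neighbours, *CG41099* was not called in 3 settings and *CG41128* in 2. *Ilp7* gets no fold change under any setting, as both conditions were at or under the floor.

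The labels give the conditions the same replicate numbers but do not say what a number marks. Same-numbered libraries deviated together with a correlation across genes of 0.168, or 0.409 over the 4610 genes whose log2 CPM averaged 5 or more. A fit with replicate as a block gave 2276 called genes, 2256 of them among the 2285. The log2 fold changes were -2.06 for *Parg* and 1.18 for *Parp1*, and the number called on each list did not change. With 2 libraries per condition, the share of Parg-RB and the calls of *tefu*, *PI31* and *CG41128* depend on single libraries. *Tnks* and *gkt*, not called with all libraries, were called when a single library was left out.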
